A study of Homo sapiens with 7 samples.

Results

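Antibody capture and chemical capture of N6-methyladenosine (m6A) were compared on the same kind of RNA, polyA RNA of HEK-293T cells. All peaks of the 2 antibody lists and of the 1 chemical list made from polyA RNA were taken, 48637 of the 59659 peaks in the 4 lists of the series. The list of 11022 peaks from total RNA was left out, so that the RNA type is the same for both methods. A peak was called shared when, on 1 strand, at least 1 nt of it lay on a peak of another list. Only blocks counted, the stretches of a peak that remain once the introns it spans are taken out. Genes were compared through the Ensembl ID that each peak carries, 11479 IDs in all.

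HEK-293T is an established human embryonic kidney line, and the labels name no drug, knockdown or other allele for any of the 3 libraries. In MeRIP (replicates 1 and 2), polyA RNA was broken into fragments and those bound by an anti-m6A antibody were eluted. In m6A-ORL (replicate 2 of that method), fragments were reacted in steps with NO/O2, TDO and a probe named BA, the biotinylated RNA was held on streptavidin beads, and DTT released it. The labels call the RNA of all 3 libraries polyA RNA and that of the fourth list total RNA, although the protocol text shared by the samples describes oligo(dT) selection without exception. The RNA type of the fourth list therefore rests on its label alone. They do not say whether the replicates were separate cultures, and the chemical method has 1 such library. With 1 library against 2 a permutation of the method label has 3 outcomes and cannot give a p under 0.33, so no test between methods is given. Intervals are exact Clopper-Pearson 95% intervals and cover counting error over peaks or genes only. Read depth and RNA abundance are unknown here, and a peak list cannot show by itself whether a gene without a peak was expressed.

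The methyl group of m6A is placed on nascent mRNA by a complex built around METTL3 and METTL14, mostly within a short consensus around an adenosine, and it is known to be dense near stop codons, in last exons and in long internal exons. YTH-domain proteins read the mark, with effects on mRNA decay and translation. When the first transcribed base of an mRNA is an adenosine, it can carry a related mark next to the cap, m6Am, which anti-m6A antibodies also bind. Many mRNAs of the translation machinery begin instead with a cytidine followed by a run of pyrimidines, the TOP motif.

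Gene starts show how the lists differ at sequence level, because a start is a fixed point whose sequence is known. The 50 bases from the RefSeq start of a gene were searched for peaks on the same strand, over 35116 start windows. Some of the windows with the best scores in each class are shown as 30 bases each, 10 before the start and 20 from the start on, with the first transcribed base in capitals. Sequences are from RefSeq on GRCh38.p14, 5′ to 3′ on the gene's strand. The first 5 starts had a peak in all 3 lists.

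JUND: ggcgcggcgcAggagccgccgccagtggag
PCBP1: cgccccgcccAgaccgccgaggctgccgcc
KCTD12: gcgacccggcActcgcctggagcgcgcggg
YWHAG: cacagcagccGcagccgcctcgcgcccggt
CCDC85B: ctgcctcggcCactgcctgccgcgtgcgga

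They lie at chr19:18281603-18281632 (minus), chr2:70087467-70087496 (plus), chr13:76886386-76886415 (minus), chr7:76358972-76359001 (minus) and chr11:65890663-65890692 (plus). JUND encodes a member of the JUN family of transcription factors, PCBP1 a poly(C)-binding protein and YWHAG an adaptor that binds phosphorylated proteins. The next 4 starts had a peak in both MeRIP lists and none by m6A-ORL.

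ZNF865: agggggcggcActtccggtcgggccctcgg
LRFN4: gcgcgcgcccGccggcgcgcacccgctcgc
PAQR4: tcctggctgcAgagagactaccggccaccg
FOXC1: ggtgacggatGctcaaaagttcagaagttt

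They lie at chr19:55605637-55605666, chr11:66857054-66857083, chr16:2969338-2969367 and chr6:1609905-1609934, all on the plus strand. FOXC1 encodes a forkhead transcription factor and PAQR4 a membrane protein. The last 5 starts had an m6A-ORL peak and none by MeRIP.

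RPLP1: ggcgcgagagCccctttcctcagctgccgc
EIF1: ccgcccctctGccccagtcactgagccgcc
LDHA: ccagctcagaGtgctgcagccgctgccgcc
RPLP2: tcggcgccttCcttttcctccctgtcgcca
RACK1: gcttttctctCtctctttcactgcaaggcg

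They lie at chr15:69452808-69452837, chr17:41688875-41688904, chr11:18394553-18394582 and chr11:809957-809986 on the plus strand and chr5:181243887-181243916 on the minus strand. RPLP1 and RPLP2 encode the acidic stalk proteins of the large ribosomal subunit, RACK1 a scaffold on the small subunit, EIF1 a factor of start codon selection and LDHA lactate dehydrogenase A.

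Over all start windows the first base differed between these classes in the same direction as in the examples. The first base was A in 53.0% of the 166 windows with a peak in all 3 lists (interval 45.1 to 60.8) and in 50.8% of the 1081 windows with both MeRIP peaks only (47.8 to 53.8). It was A in 38.3% of the 355 windows with an m6A-ORL peak only (33.2 to 43.6), against 44.4% of all windows. The first base was C in 20% of the m6A-ORL-only windows (16.0 to 24.5) and 10.5% of the MeRIP-only windows (8.78 to 12.5), against 14.7% of all. Ribosomal protein genes were 8 of the m6A-ORL-only windows, 7 of them with C first. Without them the shares of that class were 38.9% for A (33.7 to 44.3) and 18.4% for C (14.5 to 22.9). The letters GGAC, a frequent core of the m6A consensus, were searched on the gene's strand within the 50 bases. They were present in 23.9% of the MeRIP-only windows (21.4 to 26.5), 17.2% of the m6A-ORL-only windows (13.4 to 21.5) and 19.3% of the windows with all 3 (13.6 to 26.1), against 18.9% of all windows. A peak is longer than such a window, so a match is not a modified base. The annotated start can also differ from the one used in these cells.

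The chemical list was the shortest. MeRIP replicate 1 listed 20760 peaks in 9791 genes, MeRIP replicate 2 listed 20216 in 9638, and m6A-ORL listed 7661 in 4495. The MeRIP replicates lay close to each other, at 20488 ± 385 peaks (SD, n = 2). Peaks per gene were 2.12, 2.10 and 1.70 in that order, and genes with a single peak made up 47.2%, 47.7% and 62.9%. Median peak widths, counted over blocks, were 211 nt for each MeRIP replicate and 149 nt for m6A-ORL. Peaks of more than 1 block made up 16.9%, 16.3% and 27.8%. Peaks that overlapped another peak of their own list made up 8.33%, 7.95% and 6.54%, and 2.13%, 2.08% and 1.02% did so within 1 gene ID. The authors' score, a p-value or q-value that orders peaks within 1 list, had a median of 1.3e-08 and 1.8e-08 in the MeRIP lists and 1.7e-05 in the m6A-ORL list. The merged lists formed 25848 separate sites. The largest class, 13247 sites (51.2%), was shared by the MeRIP replicates alone, 2692 (10.4%) were in all 3 lists, and 3864 (14.9%) were in the m6A-ORL list alone.

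**Figure D1:**
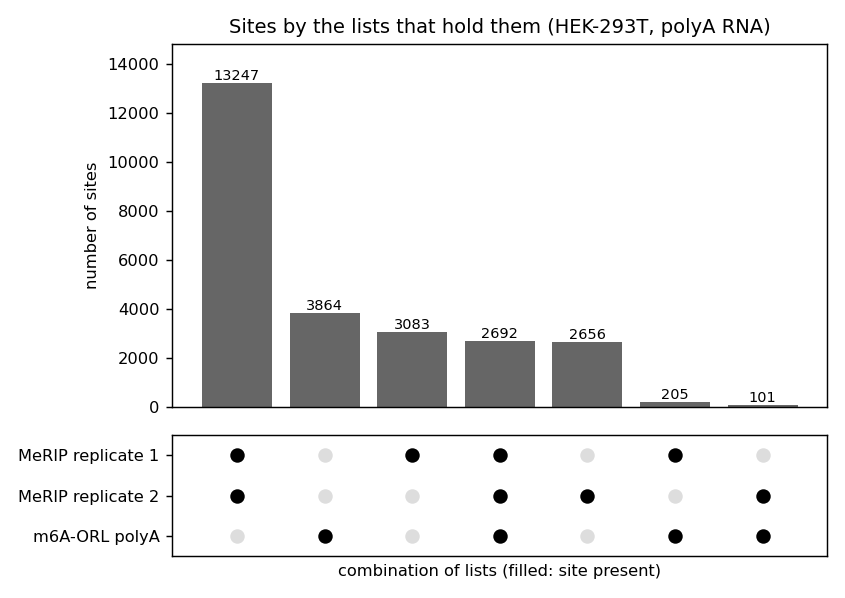
Number of sites (y axis) for each combination of the 3 peak lists, marked by filled circles under the bars; overlapping peaks were merged into a site. Sites of both MeRIP lists without m6A-ORL (13247) are the most frequent class, and 2692 sites are in all 3 lists.

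Fewer chemical peaks lay on antibody peaks than apart from them. Of 7661 m6A-ORL peaks, 3226 (42.1%, 41.0 to 43.2) overlapped a peak in both MeRIP lists, 436 (5.69%) in one of them, and 3999 (52.2%, 51.1 to 53.3) in neither. In the other direction m6A-ORL overlapped 14.8% of the peaks of MeRIP replicate 1 and 14.5% of replicate 2 (14.7% ± 0.236, SD, n = 2). The MeRIP replicates overlapped each other at 83.6% and 86.0%. MeRIP peaks present in both MeRIP lists were overlapped by m6A-ORL in 16.4% and 16.2% of cases, and those in a single MeRIP list in 6.68% (5.86 to 7.57) and 3.90% (3.21 to 4.68). When each MeRIP list was shortened to its 7661 best-scored peaks, 31.4% of m6A-ORL peaks overlapped both and 27.0% of MeRIP peaks overlapped m6A-ORL. With every peak replaced by a window of 50 nt on either side of its midpoint, an alternative chosen after seeing the data, the values were 16.3% and 7.63%, so the shares depend on peak width.

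Some of the best-ranked shared sites show how the peaks lie on each other. In EEF2, the factor that moves the ribosome along in elongation, the m6A-ORL peak at chr19:3976235-3976652 (minus strand) shared its end with a MeRIP peak at 3976175 to 3976652 in both replicates. In SOX4, a transcription factor gene, a m6A-ORL peak of 1852 nt at chr6:21594529-21596380 lay within a MeRIP peak of 3106 nt that had the same ends in both replicates. In SOX12, a related gene, the m6A-ORL peak at chr20:326939-327297 covered 359 nt of a MeRIP peak of 1703 nt. In ARHGDIA the m6A-ORL peak of 570 nt (chr17:81868469-81869038) was the widest of the 3, against 450 and 540 nt by MeRIP. In NCL, the gene of nucleolin, the peaks measured 270 nt by m6A-ORL (chr2:231455176-231455578, 2 blocks) and 390 nt in each MeRIP list.

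In most overlaps the chemical peak sat inside the antibody peak. Of the overlapping m6A-ORL peaks 67.7% lay wholly within peaks of MeRIP replicate 1 and 67.2% within those of replicate 2. Of the overlapped MeRIP peaks 12.4% and 10.9% lay wholly within m6A-ORL peaks, and the median share of their bases covered was 34.4% and 33.7%. Between pairs of overlapping single-block peaks the midpoint of the m6A-ORL peak lay a median of 0 nt from that of either MeRIP list along the strand, so there was no shift toward either end. The spread was wider than between replicates: the median distance was 90 and 104 nt, against 15.0 nt between the MeRIP lists. Midpoints lay within 50 nt of each other in 32.1% and 30.5% of these pairs, against 78.8% of pairs of MeRIP peaks. The 2851 reproducible peaks of MeRIP replicate 1 that m6A-ORL overlapped had a median width of 443 nt and a median score of 2e-38, and the 14496 not overlapped had 240 nt and 7.1e-10. In MeRIP replicate 2 these were 446 nt and 1e-37 against 240 nt and 3.15e-09.

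Better-scored peaks were shared more often in every list. The 767 best m6A-ORL peaks, the top 10% by score, overlapped both MeRIP lists in 52.7% (49.1 to 56.3) and the bottom 10% in 31.6% (28.3 to 35.0). In the top 10% of the MeRIP lists 51.0% and 51.2% of peaks overlapped m6A-ORL, in the next 10% 23.8% and 24.0%, and in the bottom 10% 3.66% and 3.12%. Widths moved with the score: the median fell from 298 to 61.0 nt along the m6A-ORL list and from 714 to 89.0 nt along MeRIP replicate 1. With these fixed windows the gradients had the same direction, from 21.6% to 12.9% for m6A-ORL and from 21.2% to 2.60% for MeRIP replicate 1. By width, both MeRIP lists overlapped 34.6% of m6A-ORL peaks of up to 90 nt and 58.2% of those from 212 to 1852 nt.

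**Figure D2:**
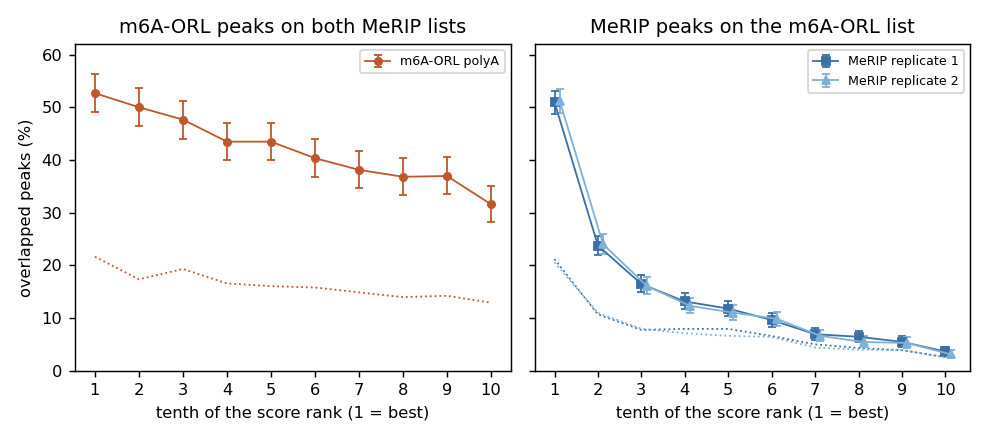
Share of peaks overlapped by the other method (y axis, %) by score rank within each list in 10 equal steps (x axis, 1 the best); points with exact 95% intervals are whole peaks and dotted lines are windows of 50 nt on either side of the midpoints. The m6A-ORL share falls from 52.7% to 31.6%, and the share of MeRIP replicate 1 from 51.0% to 3.66%.

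The m6A-ORL peaks without an antibody partner had their own features. Their median width was 121 nt against 151 nt for peaks overlapping both MeRIP lists, their median score was 3e-05 against 7.8e-06, and 36.3% had more than 1 block against 16.7%. Of m6A-ORL peaks that cross a splice junction, 25.3% overlapped both MeRIP lists (23.5 to 27.2), against 48.6% of single-block peaks (47.2 to 49.9). Within genes listed in all 3 lists these were 35.1% and 60.6%. Of the 3999 peaks, 1311 (32.8%) were in genes with no MeRIP peak at all and 2388 (59.7%) in genes of all 3 lists. For the 2388, the nearest MeRIP block of the same gene lay a median of 2261 nt away on the genome (quartiles 419 and 9242), and within 300 nt for 20.8%. The m6A-ORL list from total RNA overlapped 33.3% of the peaks shared with both MeRIP lists (31.7 to 35.0) and 9.23% of those shared with neither (8.35 to 10.2). That library is another replicate and by its label another RNA type, and these cannot be told apart.

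More was shared by gene than by peak, but a shared gene needs no overlap of peaks. Of the 3226 m6A-ORL peaks on both MeRIP lists, 3222 lay in genes of all 3 lists, so a shared peak nearly always made a shared gene. All 3 lists held 3242 genes, which is 72.1% of the m6A-ORL genes and 33.1% and 33.6% of the genes of MeRIP replicates 1 and 2. Both MeRIP lists without m6A-ORL held 5697 genes (58.2% and 59.1% of the MeRIP genes), and m6A-ORL alone held 989 (22.0% of its genes). A further 264 genes were in m6A-ORL and 1 MeRIP list, and 1287 were in 1 MeRIP list only. Inside the 3242 genes 54.1% of the 5960 m6A-ORL peaks overlapped both MeRIP lists (52.8 to 55.3), and m6A-ORL overlapped 35.2% and 34.8% of the MeRIP peaks. Genes with more MeRIP peaks more often had an m6A-ORL peak: the share was 27.8% of 4533 genes where the smaller of the MeRIP peak numbers was 1, 46.9% of 1078 genes where it was 3, and 60.1% of 258 genes where it was 6 or more. The median genomic span rose along these classes as well, from 25200 to 30292 and 60161 nt, and its part was not tested. Of the 3242 genes 1402 (43.2%) had fewer m6A-ORL peaks than either MeRIP list and 522 (16.1%) had more. Most genes with many m6A-ORL peaks held both shared and unshared ones: of 157 genes with 5 to 15 m6A-ORL peaks, both MeRIP lists overlapped all of them in 18 genes and none in 7. Both MeRIP lists overlapped 56.9% of the 1020 m6A-ORL peaks of these genes. Whether peaks of 1 gene are more alike than peaks of different genes was not tested. Named genes (9194) listed by m6A-ORL alone spanned a median of 18250 nt on the genome, those of both MeRIP lists alone 29478 nt and those of all 3 lists 26587 nt.

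The genes ranked best in all 3 lists were EEF2, NCL, SRRM2 (a scaffold of nuclear speckles), SOX12, ACTB (cytoplasmic beta-actin), CALR (calreticulin, a chaperone of the endoplasmic reticulum), SOX4, ARHGDIA, RTL8C (a gene derived from a retrotransposon) and an ID without a name, ENSG00000063244. EEF2 (chromosome 19, 3976056 to 3985463) had 3 peaks in each MeRIP list and 5 by m6A-ORL, 3 of which both MeRIP lists overlapped. NCL (chromosome 2, 231453531 to 231464484) had 4 in every list, with 3 shared. CALR (chromosome 19, 12938609 to 12944489) had 1 in every list, at the same place. SOX12 (chromosome 20, 325552 to 330224) had 2, 2 and 5, and all 5 m6A-ORL peaks fell on MeRIP peaks. In SRRM2, with 10, 8 and 13 peaks, 6 of the 13 did. Both genes thus had more chemical than antibody peaks, all on MeRIP peaks in SOX12 and fewer than all in SRRM2.

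The genes ranked best in both MeRIP lists without an m6A-ORL peak began with C21orf58, which had 7 and 6 peaks, and ABHD17A, an enzyme that removes palmitate from proteins, 6 and 6. VPS9D1 (chromosome 16, 89707134 to 89720898) had 6 and 4, and ZGPAT, a zinc finger repressor of transcription (chromosome 20, 63707442 to 63736142), 5 and 5. PLEKHG3 had 2 and 3. P3H3, RSAD1, the ubiquitin ligase gene RNF121 and ZNF593 had 2 in each list. The remaining gene of the 10 has no name here (ENSG00000272410, 3 and 3). All of them had a peak listed with a score of 0 in both MeRIP lists. The m6A-ORL list labelled total RNA held 1 peak each in VPS9D1, RSAD1, RNF121 and ZNF593. It held 2 in ENSG00000272410, 3 in PLEKHG3, and 0 in C21orf58, ABHD17A, ZGPAT and P3H3. Of all 5697 genes of both MeRIP lists without a polyA m6A-ORL peak, 40.1% had a peak in that list.

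The genes ranked best by m6A-ORL without any MeRIP peak were led by the mitochondrial chromosome. ND1 and ND2, subunits of complex I, had 2 peaks each, CYTB of complex III 2, COX2 1 and COX3 2, ND4 3, COX1 3 and ATP6, of the ATP synthase, 1. The m6A-ORL list held 23 peaks on this chromosome and the MeRIP lists 0 each. The other genes of the 10 were CKB, brain-type creatine kinase (chromosome 14, 103519667 to 103522830, 3 peaks), and RPLP1 (chromosome 15, 69452818 to 69456205, 1 peak at chr15:69452844-69453142). The best-scored m6A-ORL peaks with no MeRIP overlap outside the mitochondrial chromosome were 2 in CKB and 1 each in RPLP1, ACTG1 (gamma-actin), EIF1, LDHA and RPLP2. Their scores ran from 1e-160 to 2.5e-68, so they are among the strongest of their list. Actin and ribosomal protein genes have near-identical copies or pseudogenes, and the sources used here do not give how reads with several map positions were counted.

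Some genes carried many peaks by one method and few by the other. FASN, the fatty acid synthase gene (chromosome 17, 82078338 to 82098236, minus strand), had 1, 1 and 15 peaks. The MeRIP peak and 1 of the m6A-ORL peaks overlapped near the start of the gene, and the other 14 chemical peaks lay along the body, where MeRIP had none. HCFC1, a transcriptional coregulator (chromosome X, 153947557 to 153971818), had 3, 3 and 13, with 6 of the 13 on MeRIP peaks. FLNA, which crosslinks actin filaments, had 5, 5 and 14. The RNA-binding protein genes KHSRP and PTBP1 had 1, 1 and 9 and 1, 1 and 8. INTS1, the largest Integrator subunit gene, had 0, 0 and 8. On the other side stood AHNAK2, which encodes a giant scaffold protein (chromosome 14, 104937253 to 104978374, minus strand), with 20, 23 and 1, and AHNAK with 20, 15 and 0. Some AHNAK2 entries lie on each other, and with 1 kept of each overlapping group it had 16, 19 and 1, while the other 11 genes kept their numbers. BSN, a presynaptic scaffold gene, had 17, 14 and 0, the ubiquitin ligase gene RNF213 16, 14 and 0, FAT1, an atypical cadherin, 16, 14 and 1, and KMT2C, a histone methyltransferase, 12, 13 and 1. The total RNA list of m6A-ORL held 7 peaks in AHNAK, 3 in RNF213, 13 in FAT1 and 9 in KMT2C, and 0 in AHNAK2 and BSN.

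**Figure D3:**
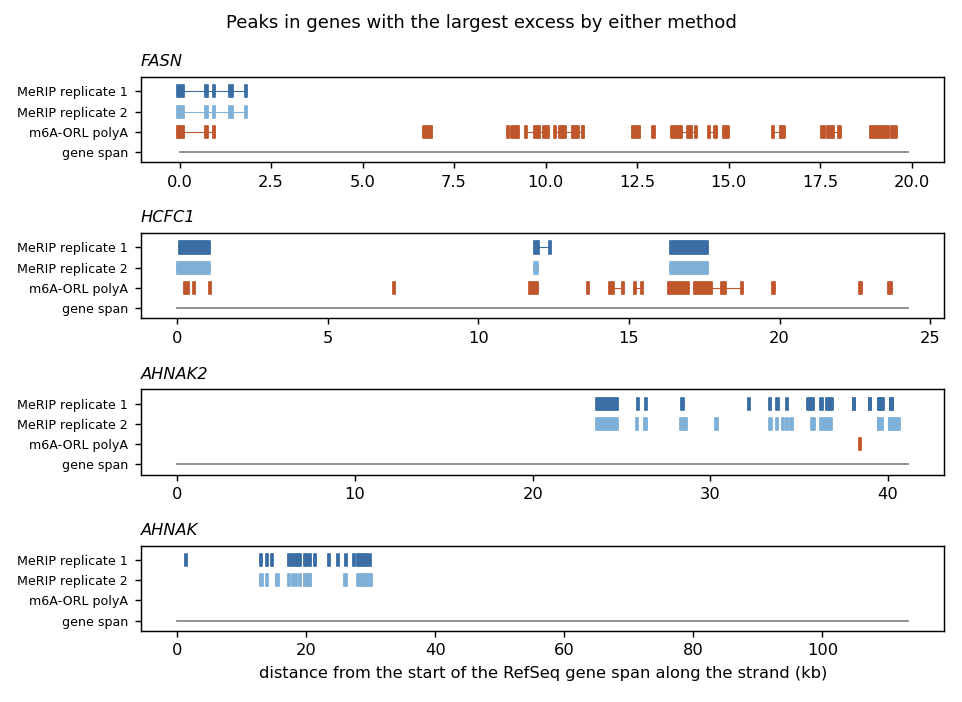
Peaks of the 3 lists in 4 genes, drawn by distance from the start of the RefSeq gene span along the strand (x axis, kb); boxes are peak blocks, thin lines join the blocks of a peak, and the grey line is the span. FASN and HCFC1 carry 15 and 13 m6A-ORL peaks against 1 and 3 in each MeRIP list, and AHNAK2 and AHNAK carry 20 MeRIP peaks each in replicate 1 against 1 and 0.

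Gene groups were described by the share of their members with a peak, over members with a named peak in any of the 3 lists. Of all 9194 such genes, 79.4% had a peak in both MeRIP lists, 40.6% had an m6A-ORL peak and 8.27% had an m6A-ORL peak with no MeRIP peak. The antibody lists are longer, and with each shortened to 7661 peaks the first share was 44.6%. The groups are small and were chosen with results of these data known, so their shares are descriptions. A member with peaks by 1 method alone was counted through that method. Of all 9194 genes, 4526 were in both MeRIP lists alone, 932 in 1 MeRIP list alone and 760 in m6A-ORL alone. Members without a named peak can lie under an ID that got no name.

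Genes of the translation and energy machinery had peaks more often by m6A-ORL. Of 42 cytosolic ribosomal protein genes (79 in the list), 41 (97.6%) had an m6A-ORL peak and 10 (23.8%) a peak in both MeRIP lists. The 31 with m6A-ORL peaks only were counted through m6A-ORL alone. RPS2 (chromosome 16, 1962058 to 1964826) had 0, 0 and 5 peaks, RPS15 and RPL14 0, 0 and 3. RPL28 (4, 3 and 1), RPL37 (3, 3 and 1) and RPS24 (3, 2 and 1) had more by MeRIP. The single m6A-ORL peak lay on peaks of both MeRIP lists in RPL28 and RPL37 and not in RPS24. Over the group 3 of 60 m6A-ORL peaks (5.00%, 1.04 to 13.9) overlapped both MeRIP lists, against 43.0% of the 6555 m6A-ORL peaks in named genes. A gene without a MeRIP peak can add almost no overlap. Of the 60 peaks 14 lay in genes of all 3 lists. Of these 14, 21.4% overlapped both MeRIP lists, against 54.05% of such peaks over all named genes. Most ribosomal protein genes have processed pseudogenes that can share reads.

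All 10 protein genes of the mitochondrial chromosome with a peak (13 in the list) had it by m6A-ORL, and 0 had one by MeRIP. These 10 were counted through m6A-ORL alone, so that share could not be lower. Of 34 respiratory chain and ATP synthase genes of the nucleus, 24 (70.6%) had an m6A-ORL peak and 12 (35.3%) a peak in both MeRIP lists. Of these 34, 15 were counted through m6A-ORL alone, 6 through both MeRIP lists alone and 4 through 1 MeRIP list alone. UQCRC1 of complex III and NDUFS8 of complex I had 0, 0 and 2, whereas UQCR11 had 2, 2 and 0 (2 in the m6A-ORL list labelled total RNA). Of their 29 m6A-ORL peaks 1 lay on both MeRIP lists, and 8 of the 29 lay in genes of all 3 lists. Of 9 glycolytic enzyme genes 8 had an m6A-ORL peak and 2 a peak in both MeRIP lists, and 6 were counted through m6A-ORL alone. GAPDH and TPI1 had 0, 0 and 3, and GPI had 1, 0 and 5. HK2, hexokinase 2, had 3, 3 and 0 (3 in the m6A-ORL list labelled total RNA). GAPDH also has pseudogenes.

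As reported, the lead of m6A-ORL was smaller for translation factors and tRNA synthetases than for the groups above, at 22.7 and 27.3 points. Of 22 initiation and elongation factor genes 20 (90.9%) had an m6A-ORL peak and 15 (68.2%) a peak in both MeRIP lists. EIF4G1, the scaffold of the cap-binding complex, had 7, 6 and 10 peaks, with 6 of the 10 shared, and EIF4G2 had 0, 0 and 2. Of 11 aminoacyl-tRNA synthetase genes 9 had an m6A-ORL peak and 6 a peak in both MeRIP lists. VARS1 (valine) had 0, 0 and 4, and AARS1 (alanine) had 2 in every list. Of 31 genes of SR proteins and hnRNPs, which act in splicing, 28 (90.3%) had an m6A-ORL peak and 21 (67.7%) a peak in both MeRIP lists. SON, a nuclear speckle protein, had 8, 7 and 5, with 4 of the 5 shared. Counts were 13 and 11 of 16 for chaperones and 10 and 8 of 15 for proteasome subunits, m6A-ORL first. They were 12 and 10 of 16 for tubulins and actins and 6 and 5 of 8 for long noncoding RNAs. Members counted through m6A-ORL alone were 7 of the 22 translation factors, 5 of the 11 tRNA synthetases and 6 of the 31 SR proteins and hnRNPs. They were 5 of the 16 chaperones and 5 of the 15 proteasome subunits. For tubulins and actins and for long noncoding RNAs they were 2 each. Members counted through both MeRIP lists alone were 2, 2, 3, 3, 3, 2 and 1 in the same order. Where a peak in either MeRIP list sufficed, an alternative chosen after seeing the data, the lead of m6A-ORL was 0 points for proteasome subunits and long noncoding RNAs and -12.5 points for tubulins and actins. It fell from 22.6 to 9.68 points for SR proteins and hnRNPs. The lead stayed at 22.7 points for translation factors, 27.3 for tRNA synthetases and 12.5 for chaperones. For the respiratory chain it was 14.7 points in that setting, against 35.3 as reported, so the order of these groups depends on the setting. MALAT1, a nuclear noncoding RNA, had 2, 2 and 3, and NEAT1, which builds paraspeckles, 6, 6 and 2.

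Several groups of regulators had peaks more often by MeRIP, as all named genes did, while their m6A-ORL share was above the 40.6% of all named genes in each group except ZNF genes. The difference between methods was -38.8 points over all named genes and -45.0, -26.1, -32.0 and -36.8 points for the m6A machinery, immediate early, HOX and Wnt, Notch and Hippo genes. At equal list length it was -3.99 over all and -5, -4.35, -12.0 and -5.26 in these groups. Of 42 chromatin regulator genes 36 (85.7%) had peaks by each method, 30 of them by both. At equal list length the shares of this group were 73.8% by MeRIP and 85.7% by m6A-ORL, a difference of 11.9 points. KMT2D, a histone H3 lysine methyltransferase (chromosome 12, 49018978 to 49060794), had 17, 14 and 12, and 11 of its 12 m6A-ORL peaks lay on both MeRIP lists. SETD1B of the same family had 9, 8 and 8, with 7 shared, whereas KMT2A had 11, 10 and 1 and TET1, a 5-methylcytosine dioxygenase, 8, 8 and 0. All 20 writers, erasers and readers of m6A with a peak had one in both MeRIP lists, and 11 (55%) had one by m6A-ORL. In RBM15B, a subunit of the m6A methyltransferase complex, all 6 m6A-ORL peaks fell on the 2 MeRIP peaks, and in ZC3H13, another subunit, 5 of 7 did. Among the 3 lists VIRMA (5, 4 and 0) and METTL16 (3, 3 and 0) had MeRIP peaks only. The m6A-ORL list labelled total RNA held 3 peaks in VIRMA and 1 in METTL16, 7 in TET1, and a peak in 40.1% of all 5697 genes of both MeRIP lists without a polyA m6A-ORL peak.

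Of 23 immediate early and short-lived transcription factor genes, 21 (91.3%) had peaks in both MeRIP lists and 15 (65.2%) by m6A-ORL. EGR1 had 4, 4 and 2, IER3 5, 4 and 1, and NR4A1 3, 3 and 0. HOX genes, which pattern the body axis, had peaks in 22 and 14 of 25, MeRIP first. HOXA13 had 4, 3 and 0 (1 in the m6A-ORL list labelled total RNA). Wnt, Notch and Hippo pathway genes had 36 and 22 of 38. The Hippo kinase genes LATS1 and LATS2 had 5, 5 and 0 and 6, 5 and 0 (5 and 0 in the list labelled total RNA), and the Wnt coreceptor gene LRP5 had 4, 3 and 7. Of 328 ZNF genes, named for their zinc fingers, 287 (87.5%) had peaks in both MeRIP lists and 74 (22.6%, 18.2 to 27.5) by m6A-ORL. Of the 328, 217 were counted through both MeRIP lists alone, 37 through 1 MeRIP list alone and 2 through m6A-ORL alone. Counted through both MeRIP lists alone were also 8 of the 23 immediate early, 9 of the 25 HOX and 16 of the 38 Wnt, Notch and Hippo genes. Through m6A-ORL alone these were 1, 0 and 2. ZNF618 and ZNF318 had 9, 8 and 0 each (5 and 7 in the m6A-ORL list labelled total RNA), and ZNF629 had 8, 7 and 3.

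The share of chemical peaks lying on MeRIP peaks differed between groups, with ranges of regulators and of other groups that overlapped. Both MeRIP lists overlapped 78.6% of 28 m6A-ORL peaks in the m6A machinery (59.1 to 91.7), 80.6% of 31 in immediate early genes (62.5 to 92.5), 71.4% of 21 in HOX genes (47.8 to 88.7) and 67.6% of 111 in ZNF genes (58.0 to 76.2). The share was 55.9% of 143 in chromatin regulators and 40.8% of 49 in Wnt, Notch and Hippo genes. It was 70.0% of 10 in long noncoding RNAs (34.8 to 93.3) and 46.4% of 28 in tubulins and actins. It was 45.5% of 44 in translation factors, 36.7% of 79 in SR proteins and hnRNPs and 35% of 20 in chaperones. It was 18.8% of 16 in proteasome subunits, 17.6% of 17 in tRNA synthetases, 4.76% of 21 in glycolytic enzymes and 3.45% of 29 in the respiratory chain. A gene without a MeRIP peak can add almost no overlap. In the same order 10, 7, 1 and 8 of these peaks lay in genes of all 3 lists. Within such genes the share was 57.1% for translation factors, 42.9% for tRNA synthetases and 12.5% for the respiratory chain. It was 54.05% over all named genes, 70.1% for ZNF genes and 42.55% for Wnt, Notch and Hippo genes. Proteasome subunits also stood below 54.05%, and the 1 glycolytic peak gives no usable share. Peaks with more than 1 block made up 31.7% of the m6A-ORL peaks of ribosomal protein genes and 42.9% of those of glycolytic enzymes, against 10.8% for ZNF genes and 12.9% for immediate early genes. They made up 44.9% for Wnt, Notch and Hippo genes and 33.6% for chromatin regulators, so the regulators did not form 1 class in this respect. The part of RNA abundance, block structure and shared reads in these differences was not tested.

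**Figure D4:**
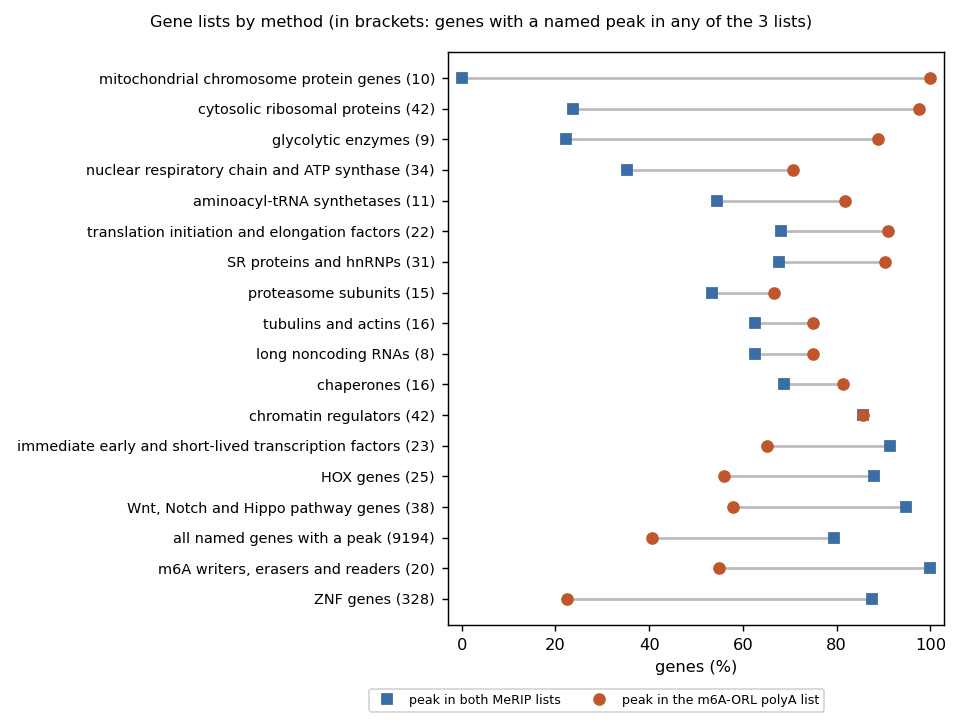
Share of genes with a peak in both MeRIP lists (squares) and in the m6A-ORL polyA list (circles) for each gene group (x axis, %), over the members with a named peak in any of the 3 lists (number in brackets). Ribosomal protein genes stand at 23.8% by MeRIP and 97.6% by m6A-ORL, ZNF genes at 87.5% and 22.6%, and all named genes at 79.4% and 40.6%.

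Along protein-coding genes both methods had their densest peaks at the 3′ end, MeRIP more so. The last 10% of the span held 37.6% and 37.4% of the MeRIP peaks (intervals 36.8 to 38.3 and 36.7 to 38.2) and 28.5% of the m6A-ORL peaks (27.4 to 29.7). The m6A-ORL peaks that overlapped both MeRIP lists stood at 33.6% (31.9 to 35.4) and those that overlapped neither at 24.6% (23.1 to 26.1). Within genes of all 3 lists the shares were 36.6% in each MeRIP list, 33.7% for the shared m6A-ORL peaks and 26.0% for the unshared. Within 300 nt of the 5′ end lay 6.10% and 6.23% of MeRIP peaks, 6.23% of the shared m6A-ORL peaks and 10.4% of the unshared (9.39 to 11.5). In genes of all 3 lists the last value was 7.86% (6.73 to 9.11), against 7.01% and 7.14% for MeRIP. Within 1000 nt of the 3′ end these genes had 11.9% of unshared m6A-ORL peaks (10.5 to 13.3), 17.0% of the shared, and 17.1% and 17.0% of MeRIP peaks. Positions are on the genomic span, so they cannot be told apart from where exons lie in it.

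**Figure D5:**
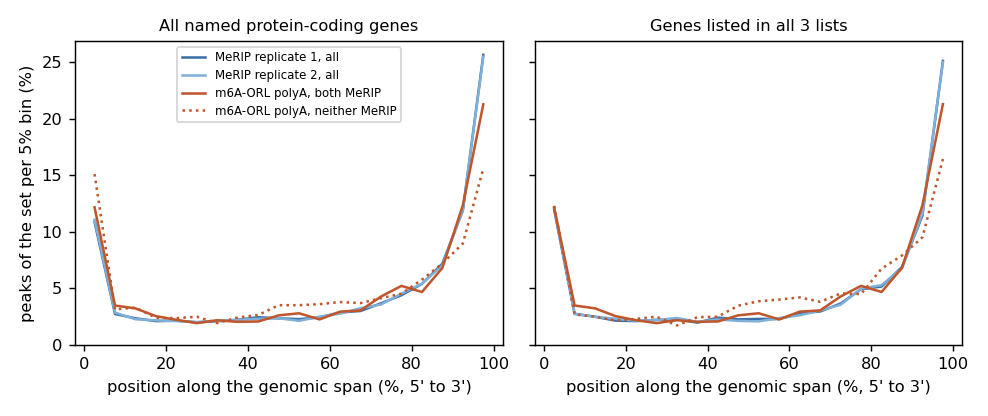
Distribution of peaks along the genomic span of named protein-coding genes (x axis, % of the span from 5′ to 3′; y axis, % of the peaks of a set per bin of 5%), for all such genes and for those of all 3 lists. Both MeRIP lists reach 25.7% and 25.5% in the last bin, m6A-ORL peaks shared with both MeRIP lists 21.3% and unshared m6A-ORL peaks 15.6%.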

How the data were processed

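Each deposited peak list has 12 BED columns, per the file headers, with position, strand, blocks, an Ensembl gene ID and a score. The deposited score lies between 0 and 0.0081 and was read as a p-value or q-value of the authors, which was used only to rank and filter peaks within a list. Per the submitters' processing notes the tools were Trim Galore, STAR and HOMER and the build hg38, with no versions or roles. Not given in the sources used here are the peak caller, its input library, its threshold and whether the score was adjusted. The 3 input samples and the read depth were not analysed here.

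Exact duplicate lines were removed (4, 3 and 1 in MeRIP replicates 1 and 2 and m6A-ORL). Overlaps were computed on blocks and strand with Python 3.11.15, numpy 2.4.6, pandas 2.3.3 and scipy 1.17.1, and the overlap code was tested on simulated data. Ensembl IDs were named by position in the RefSeq gene table (GRCh38.p14, the same build), which holds no Ensembl IDs, so 0 matched by ID. An ID took the name of a gene when at least 90% of its peak bases lay in that gene's span on the same strand, or unknown strand. Conflicts were settled by a 3-fold excess of bases. This named 10604 of the 13566 IDs of all 4 lists (78.2%), 241 of them by elimination, and 9194 of the 11479 IDs of the 3 lists (80.1%). Names can be wrong where genes overlap.

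Genes named in the text are the 10 best by worst rank in all 3 lists and in both MeRIP lists only, the 10 best by rank in m6A-ORL only, the 6 with the largest excess either way, and in each gene list up to 3 with most peaks and up to 3 with the largest difference. The start sequences were taken by the same ranking of the peak at the start, leaving out chromosome 8 and genes without an established symbol. Some items are not reported here. Best-ranked peaks shown as sites were picked after their values were seen. Members and lists were chosen with earlier results of these data known. Sequence was used only at gene starts, from a RefSeq table, and the planned search for the m6A consensus in peaks was not run. Figures were drawn with matplotlib 3.10.9. Alternatives covered the overlap rule, whole spans, strand, a score of at most 1e-05, equal list length, each MeRIP replicate left out, fixed windows, peaks that overlap others of their own list, and the naming.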

Additional observations from a re-analysis of the deposited data

How the results depend on the processing

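No paired analysis was possible because the methods share fewer than 2 replicate numbers on polyA RNA. The 42.1% of m6A-ORL peaks on both MeRIP lists became 38.0% with an overlap of at least 50% of the shorter peak, 44.4% at a score of 1e-05 or less, 31.4% at equal list length and 16.3% with windows of 50 nt on either side of the midpoints, and 44.1% to 45.8% with either MeRIP replicate left out. The 52.2% on neither became 56.1%, 50.6%, 65.1% and 75.5% in the same order, and 54.2% to 55.9%. The 14.7% of MeRIP peaks on m6A-ORL became 13.2%, 11.1%, 27.0% and 7.63%, and 14.9% on either strand. The 54.1% within shared genes became 48.8%, 60.5%, 51.2% and 20.9%, and 55.4% to 56.4%. In the top 10% by score 52.7% became 48.6% with the 50% overlap and 21.6% with windows, and in the bottom 10% 31.6% became 12.9% with windows. At a score of 1e-05 or less 1602 genes were in all 3 lists and 609 in m6A-ORL only. At equal list length 1935 genes were in m6A-ORL only and 2478 in both MeRIP lists only.

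The difference in share of genes, m6A-ORL minus MeRIP, was -38.8 points over all named genes and -3.99 at equal list length, where the MeRIP lists have fewer genes. At equal length it was 52.9 points for the respiratory chain, 50 for translation factors, 43.8 for chaperones, 41.9 for SR proteins and hnRNPs, -5 for the m6A machinery, -4.35 for immediate early genes, -12.0 for HOX genes, -5.26 for Wnt, Notch and Hippo genes and -21.0 for ZNF genes (-64.9 as reported). With a peak in either MeRIP list it was 14.7 for the respiratory chain (35.3 as reported), -12.5 for tubulins and actins, -44.0 for HOX genes, -76.8 for ZNF genes and -51.1 over all named genes. With a MeRIP replicate left out it was -71.3 to -70.4 for ZNF genes and -45.5 to -44.3 over all. For chromatin regulators the difference was 0 as reported and 11.9 points at equal length. Of 17 lists, 16 kept the sign at equal length, 13 with either MeRIP list, 17 with names from 1 span only, and 14 and 15 without MeRIP replicate 1 and 2. The cause of these shifts was not tested beyond what each setting does by construction. Shares were called moved outside their 95% interval or the replicates' SD, and gene counts past 1.5-fold; by this 49 values moved and 96 did not. Counts within 1.5-fold still shifted, as from 3242 to 2381 genes in all 3 lists at equal length. Leaving out peaks that overlap a better peak of their own list gave 41.9% on both MeRIP lists and 52.3% on neither. Windows, own-list overlap, either-list and naming settings were chosen after seeing the data. Depth is unknown, so a missing peak is not evidence of a missing mark.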

Other observations

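Chromosome 19 held 8.85% and 8.67% of MeRIP peaks and 13.7% of m6A-ORL peaks, and chromosome 18 held 1.41%, 1.44% and 0.600%. The share of m6A-ORL peaks on both MeRIP lists ran by nuclear chromosome, leaving out Y with 1 peak in each list, from 31.4% on X to 52.2% on chromosome 16.

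Of 1562 miRNA hairpins in the RefSeq table, 20 were overlapped by both MeRIP lists and 9 by m6A-ORL, and MIR1181 by all 3. Most of these hairpins lie in host transcripts, so a peak can belong to the host. The 7 with m6A-ORL and no MeRIP overlap were MIR4444-1, MIR6890, MIR3655, MIR4745, MIR1909, MIR6869 and MIR658.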
